A study of Mus musculus with 5 samples.

Results

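The 33 genes described here encode the proteins that bring glucose into the cell, split it to pyruvate, and send pyruvate to lactate or to the mitochondrion. They are Slc2a1, Slc2a3, Hk1, Hk2, Gpi1, Pfkl, Pfkp, Pfkm, Pfkfb2, Pfkfb3, Pfkfb4, Aldoa, Aldoc, Tpi1, Gapdh, Pgk1, Pgam1, Bpgm, Eno1, Eno2, Pkm, Ldha, Ldhb, Slc16a1, Slc16a3, Pdk1, Pdk3, Pdha1, Pdhb, Mpc1, Mpc2, Pgm1 and Pgm2. They are defined by symbol, a rule that reads no measured value, although earlier results of these data were known when they were picked. All 33 were found among the 31053 genes of every matrix. The data are single-cell RNA counts from 15 mammary tumors, each labeled with a mouse of its own, of female FVB/N mice carrying the MMTV-PyMT transgene, an oncogene of polyomavirus that a mouse mammary tumor virus promoter switches on in the mammary epithelium. From 7 weeks of age the mice received 5 mg/kg of the anti-VEGF-A antibody B20-4.1.1 (9 tumors) or a control mouse IgG2a, C1.18.4 (6 tumors), injected into the peritoneum 2 times a week over 6 weeks. Viable, DAPI-negative cells of 3 tumors at a time were tagged with oligonucleotides and loaded as 1 pool, which gave 2 isotype pools and 3 B20-4.1.1 pools, and a pool held only 1 treatment, so that pool and treatment cannot be told apart.

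The files held 30340 cells and 19533 were kept, of which 10630 came from isotype tumors and 8903 from B20-4.1.1 tumors. Before this selection the median cell held 2192 to 2423 UMIs (counted RNA molecules) in the tumors of isotype pool 1. In the tumors of the other pools it held 2819 to 9834.5. Cells were placed in a class by marker genes that include none of the 33: 13768 epithelial-like, 1437 macrophage-like and 2573 T-like cells are used here. In epithelial-like cells the summed epithelial markers stood at 66.9 to 129 UMIs per 10000 UMIs, against 1.09 to 2.01 in macrophage-like and 2.75 to 4.78 in T-like cells. The median epithelial-like cell held 7694 and 8782 UMIs in the isotype pools and 8594 to 11350 in the B20-4.1.1 pools. Its mitochondrial share was 5.99% and 3.39% in the isotype pools and 2.75% to 2.80% in the B20-4.1.1 pools. Cell barcodes were never shared within a pool, and 94 were shared between pools, counted over 90 pairs of tumors. The tumor is the replicate throughout.

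Glucose enters through GLUT transporters (Slc2a genes), is trapped by hexokinase, and is committed to glycolysis by phosphofructokinase, which the bifunctional Pfkfb enzymes tune through fructose 2,6-bisphosphate. The aldolase-to-pyruvate kinase steps yield ATP and pyruvate. Lactate dehydrogenase turns pyruvate into lactate, which leaves or enters cells through the monocarboxylate transporters Slc16a1 (MCT1) and Slc16a3 (MCT4), while Mpc1 and Mpc2 carry pyruvate into mitochondria, where pyruvate dehydrogenase (Pdha1, Pdhb) consumes it unless a Pdk kinase switches it off. Many of these genes are textbook targets of hypoxia-inducible factor (HIF), which binds the core letters ACGTG or GCGTG. Blocking VEGF-A, the main growth signal of new vessels, is a way to alter the blood supply of a tumor, and the study asked how tumors differ in their response to it.

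Promoters of 4 members are shown because they cover the different behaviors found below: Pgk1 and Slc16a3 were high in cells marked by hypoxia genes, Ldha was higher there by a small margin, and its partner Ldhb was lower. Each runs from 250 bases before to 50 bases after the RefSeq start of the gene, 5′ to 3′ on the gene's own strand, in GRCm38.p6. Capitals mark ACGTG or GCGTG on either strand (as CACGT or CACGC where the motif lies on the other strand), including those inside the overlapping E-box CACGTG.
Pgk1, chrX:106186850-106187149, plus strand: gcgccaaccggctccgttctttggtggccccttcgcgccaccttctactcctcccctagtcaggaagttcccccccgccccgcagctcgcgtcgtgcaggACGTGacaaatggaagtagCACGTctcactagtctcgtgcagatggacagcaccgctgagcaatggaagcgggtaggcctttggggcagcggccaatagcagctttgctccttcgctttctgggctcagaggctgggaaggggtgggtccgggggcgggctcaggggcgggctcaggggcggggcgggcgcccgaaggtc
Slc16a3, chr11:120948817-120949116, plus strand: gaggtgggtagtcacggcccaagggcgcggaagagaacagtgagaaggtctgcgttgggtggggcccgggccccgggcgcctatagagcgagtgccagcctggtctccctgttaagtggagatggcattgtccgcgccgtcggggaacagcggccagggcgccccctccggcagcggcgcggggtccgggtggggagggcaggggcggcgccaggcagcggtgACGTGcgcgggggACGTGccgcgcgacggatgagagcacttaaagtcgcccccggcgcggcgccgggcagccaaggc
Ldha, chr7:46845554-46845853, plus strand: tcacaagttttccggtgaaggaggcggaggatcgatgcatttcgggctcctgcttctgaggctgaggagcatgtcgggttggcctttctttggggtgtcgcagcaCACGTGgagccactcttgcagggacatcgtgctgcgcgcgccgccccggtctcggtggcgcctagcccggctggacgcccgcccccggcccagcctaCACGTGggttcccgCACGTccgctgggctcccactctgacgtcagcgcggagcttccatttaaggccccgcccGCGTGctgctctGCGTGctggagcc
Ldhb, chr6:142507908-142508207, minus strand: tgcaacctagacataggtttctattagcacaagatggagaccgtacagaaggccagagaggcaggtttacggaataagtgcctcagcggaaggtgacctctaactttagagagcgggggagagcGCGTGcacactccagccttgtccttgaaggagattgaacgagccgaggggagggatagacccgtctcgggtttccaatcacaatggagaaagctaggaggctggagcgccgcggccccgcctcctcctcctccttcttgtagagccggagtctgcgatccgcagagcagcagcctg
The window of Pgk1 held 2 matches, that of Slc16a3 2, that of Ldha 7 and that of Ldhb 1. Each CACGTG was counted as 2 matches, 1 per strand, as in the Ldha window. Of all 27025 promoters of this length, 43.8% held a match, and 25 of the 32 members in the RefSeq table did (78.1%). The members' windows were also richer in G and C, with a median of 62.2% against 52.7% over all promoters. A match is a string of letters and not a bound site.

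The first comparison asked which of these genes the cell classes carried, within the same tumors. The largest log2 differences lay in isozymes and transporters that have a partner for the same step. Macrophage-like cells had more of Slc2a3, Hk2, Pfkfb3, Pfkfb4, Eno2 and Slc16a3, epithelial-like cells had more of Hk1, Pfkl, Pfkm, Aldoc, Ldhb and Mpc2, and T-like cells had more of Slc2a3 and less of most other members. Of 32 members tested between macrophage-like and epithelial-like cells of 14 tumors, 13 were higher and 12 lower in macrophage-like cells (edgeR quasi-likelihood test with tumor as block, adjusted over all genes). Over all genes tested, 35% were higher and 43.8% lower, so the count itself does not set the members apart. Between T-like and epithelial-like cells of 15 tumors, 4 of 31 tested members were higher and 22 lower, against 33.7% and 43.1% of all genes.

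**Figure D1:**
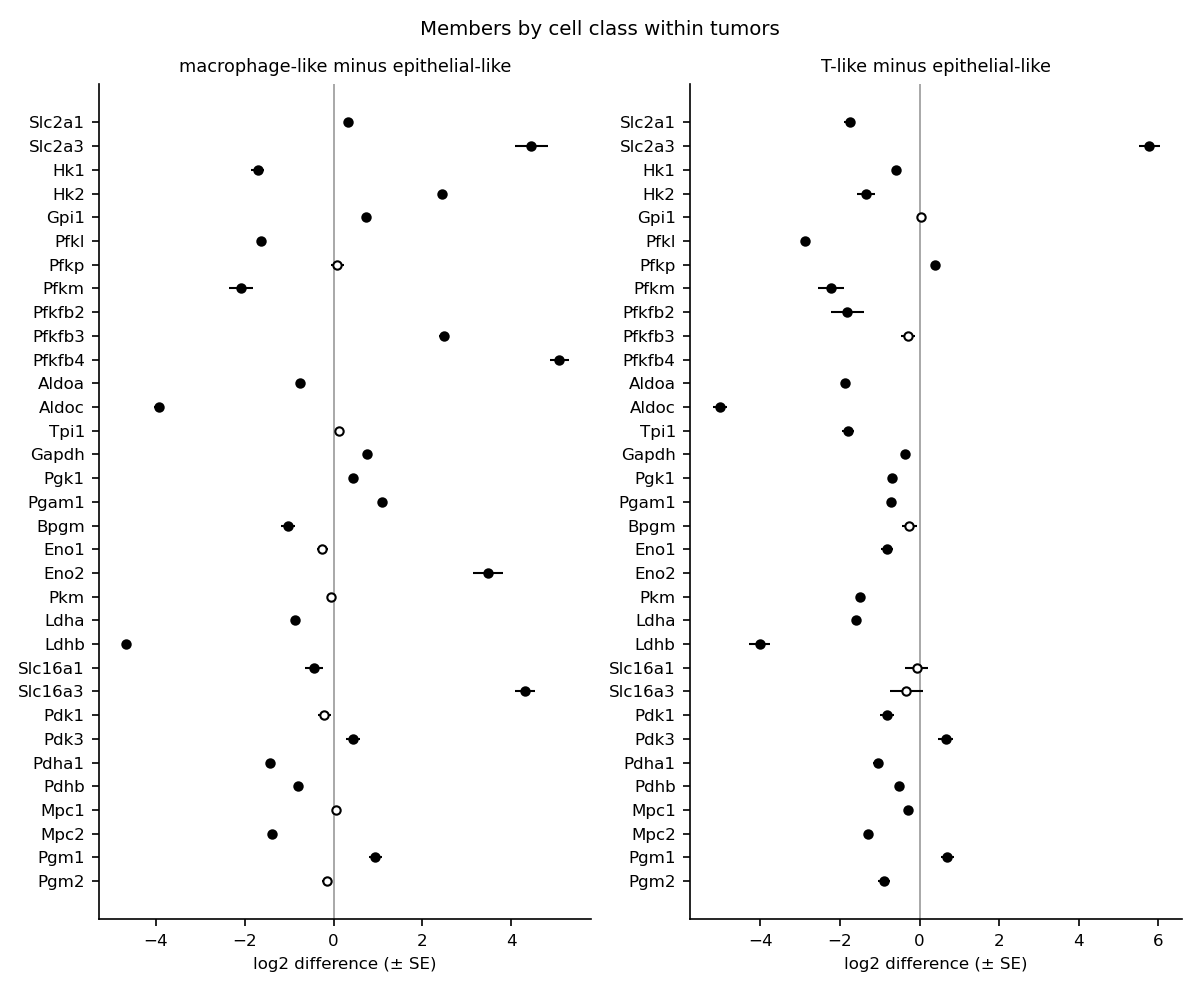
Log2 differences of each member between macrophage-like and epithelial-like cells (left, 14 tumors) and between T-like and epithelial-like cells (right, 15 tumors), with standard errors as bars; filled points passed the adjusted threshold of 0.05, and a member with no point was not tested. Slc2a3 sits far to the right in both panels and Aldoc and Ldhb far to the left in both.

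Among the glucose transporters, Slc2a3 (GLUT3, a high-affinity carrier common in leukocytes) was at 0 to 0.00563 UMIs per 10000 in epithelial-like cells and at 0.0864 to 0.275 in T-like cells, and no T-like value fell within the epithelial-like range. Its log2 difference was 5.77 in T-like and 4.45 in macrophage-like cells. Slc2a1 (GLUT1, the broadly expressed carrier) ran from 0.305 to 0.629 in epithelial-like cells and from 0.0539 to 0.338 in T-like cells, lower in T-like cells in 15 of 15 tumors (log2 difference -1.76).

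Hexokinase 2 (Hk2), the inducible form of the first enzyme, was at 1.12 to 3.53 UMIs per 10000 in macrophage-like cells and at 0.275 to 0.661 in epithelial-like cells of the same tumors, with no overlap (log2 difference 2.43). Hk1, the housekeeping form, went the opposite way, at 0.132 to 0.467 against 0.59 to 1.14 (log2 difference -1.71). Hk2 thus made up 80.8% to 94.7% of the UMIs of the pair in macrophage-like cells, with a median of 90%. In epithelial-like cells that share was 22.5% to 48.8%.

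Phosphofructokinase also differed in its subunits. The liver-type subunit Pfkl was at 1.31 to 1.75 UMIs per 10000 in epithelial-like cells, above every macrophage-like (0.285 to 0.98) and T-like value (0.124 to 0.266). The platelet-type subunit Pfkp made up 53.9% to 81.8% of the UMIs of the 3 subunit genes in T-like cells, against 14.4% to 25.1% in epithelial-like cells. Of the regulators, Pfkfb4 was at 0.1 to 0.302 in macrophage-like cells and at most 0.0131 in epithelial-like cells (log2 difference 5.08), while Pfkfb3, the form with the strongest kinase bias, was at 0.428 to 1.26 against 0.0769 to 0.208 (2.47). Pfkfb2 reached at most 0.0555 in epithelial-like cells and was not tested in macrophage-like cells.

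Aldolase C (Aldoc) and lactate dehydrogenase B (Ldhb, the form usually linked to lactate use) were found mostly in epithelial-like cells. Aldoc ran from 1.92 to 2.71 UMIs per 10000 in epithelial-like cells, from 0.0554 to 0.327 in macrophage-like cells and from 0 to 0.236 in T-like cells. Ldhb ran from 1.01 to 1.97, from 0.0367 to 0.136 and from 0 to 0.271 in the same order. Both were apart in every tumor, with log2 differences of -3.93 and -4.67 in macrophage-like cells. Epithelial markers were also counted at low levels in the other classes, and their part in these low values was not tested. In T-like cells Aldoc stood at 3.43% and Ldhb at 4.72% of the epithelial-like level, where the epithelial markers themselves stood at a median of 2.54% (1.35% to 50.6%). In macrophage-like cells the figures were 7.02% and 4.14%, beside a marker median of 1.72% (1.17% to 6.19%).

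MCT4 (Slc16a3), the lactate exporter of glycolytic cells, ran from 0.389 to 1.13 UMIs per 10000 in macrophage-like cells and from 0.00406 to 0.0926 in epithelial-like cells (log2 difference 4.31). It made up 84.4% to 100% of the UMIs of the 2 lactate carriers in macrophage-like cells. In epithelial-like cells, where Slc16a1 was at 0.0495 to 0.0943, that share ranged from 7.02% to 57.1%. The epithelial-like level of Slc16a3 was 5.61% of the macrophage-like level, while the macrophage markers stood in epithelial-like cells at a median of 0.152% of their own level.

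Members of the mitochondrial entry were lower in macrophage-like than in epithelial-like cells: Pdha1 (log2 difference -1.43), Pdhb (-0.80) and Mpc2 (-1.39), while Mpc1 did not pass. The lower steps of glycolysis were split, with Pgam1 (1.09), Gapdh (0.75) and Pgk1 (0.44) higher and Aldoa (-0.77) and Ldha (-0.86) lower in macrophage-like cells. Summed over all 33, macrophage-like cells held 35.3 to 67.5 and epithelial-like cells 45.1 to 68 UMIs per 10000 in the 14 tumors, and T-like cells held 19.5 to 34.5, below every epithelial-like value. Eno1 counts are uncertain, since its near-identical copy Eno1b took part of the reads (629 UMIs against 3361 for Eno1 in epithelial-like cells), and Gapdh and other members have many processed copies.

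**Figure D2:**
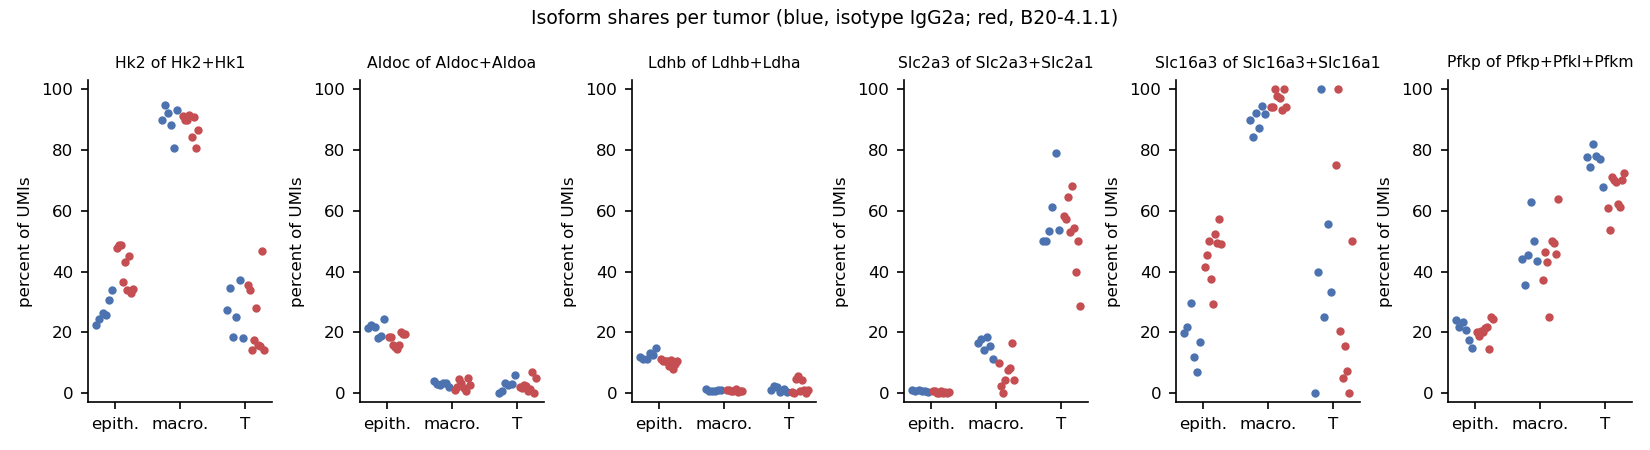
Share of UMIs, in percent, that 1 isozyme or transporter took of its pair or trio, for each tumor (points) in epithelial-like, macrophage-like and T-like cells; UMIs were not divided by gene length. The Hk2 share is above 80% in every macrophage-like sample, the Ldhb and Aldoc shares are above those of the other classes in every epithelial-like sample, and the Slc16a3 share in T-like cells is scattered and rests on few UMIs.

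The main comparison asked how the members differed between B20-4.1.1 and isotype tumors in epithelial-like cells. Most enzymes from hexokinase 2 to lactate dehydrogenase A, the glucose carrier Slc2a1 and the lactate exporter Slc16a3 were higher in B20-4.1.1 tumors, Hk1 was lower, and the genes of mitochondrial pyruvate entry did not pass the test. Of 30 members tested, 14 were higher and 1 was lower at an adjusted p under 0.05, against 7.46% of 12321 genes higher and 6.95% lower. With the pool as a random block (limma voom) 3 members passed, Pgk1, Tpi1 and Gapdh, against 0.381% of all genes, and the other 12 had adjusted p between 0.0910 (Pfkfb3) and 0.299 (Hk1), so the adjusted p values given below for them hold only without the block. The median log2 difference was 0.27 over the 30 members and -0.005 over all genes. Slc2a3, Pfkfb4 and Eno2 were too low to be tested. The epithelial-like cells of the 2 groups were spread differently over the clusters of this class, with 1790 isotype and 423 B20-4.1.1 cells in cluster 2, 1434 and 484 in cluster 3, 388 and 734 in cluster 8 and 291 and 608 in cluster 9. A different level per cell and a different mix of such clusters cannot be told apart in the sums.

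At the entry, Slc2a1 was at 0.305, 0.388 and 0.485 UMIs per 10000 in isotype tumors (lowest, median, highest) and at 0.358, 0.486 and 0.629 in B20-4.1.1 tumors. The groups overlapped, with B20-4.1.1 pool 1 (mean 0.380) below isotype pool 1 (0.453). Its log2 difference was 0.40 ± 0.12 (SE, adjusted p = 0.0314). Hk2 was at 0.275, 0.335 and 0.384 against 0.348, 0.486 and 0.672, and the highest values all came from B20-4.1.1 pool 1 (mean 0.662, against 0.424 and 0.411 in the other B20-4.1.1 pools). The log2 difference of Hk2 was 0.70 ± 0.14 (adjusted p = 0.00521).

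Hk1 was the 1 member that was lower, at 0.654, 0.937 and 1.14 UMIs per 10000 in isotype tumors and 0.59, 0.704 and 0.769 in B20-4.1.1 tumors. Its log2 difference was -0.29 ± 0.09 (adjusted p = 0.0468). That difference rested on isotype pool 1, whose mean was 1.11, while isotype pool 2 (0.711) was level with the B20-4.1.1 pools (0.690 to 0.708), and without isotype pool 1 the log2 difference was -0.06. Together the 2 hexokinases left Hk2 with 22.5% to 34.0% of the pair's UMIs in isotype tumors and 32.9% to 48.8% in B20-4.1.1 tumors.

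In the upper steps, Gpi1 (glucose-6-phosphate isomerase) was at 1.2, 1.32 and 1.41 UMIs per 10000 in isotype tumors and 1.53, 1.68 and 1.94 in B20-4.1.1 tumors, without overlap (log2 difference 0.45 ± 0.09, adjusted p = 0.00559). Pfkfb3 was at 0.0769, 0.101 and 0.138 against 0.128, 0.155 and 0.208 (0.75 ± 0.13, adjusted p = 0.00208), with 6 of 9 B20-4.1.1 tumors above every isotype tumor. The 3 subunits of phosphofructokinase itself did not pass: Pfkl, the most counted of them, had a log2 difference of 0.15 (adjusted p = 0.206), Pfkp 0.18 and Pfkm 0.03. Pfkfb2, at most 0.0555 in any tumor, had a log2 difference of -0.44 (adjusted p = 0.105).

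In the lower steps the separation was widest. Tpi1 (triosephosphate isomerase) was at 2.25, 2.49 and 2.85 UMIs per 10000 in isotype tumors and 3.71, 3.96 and 4.3 in B20-4.1.1 tumors, with a log2 difference of 0.72 ± 0.10 (adjusted p = 0.000558). Pgk1 (phosphoglycerate kinase, the first ATP-yielding step) was at 1.36, 1.43 and 1.76 against 2.06, 2.65 and 3.13 (0.92 ± 0.12, adjusted p = 0.000558). Gapdh was at 1.77, 2.23 and 2.9 against 3.33, 3.72 and 4.19 (0.74 ± 0.15, adjusted p = 0.00561). None of these 3 genes overlapped between the groups. Pgam1 (phosphoglycerate mutase) did not overlap either, at 1.29, 1.44 and 1.76 against 1.77, 2.24 and 3.01 (0.69 ± 0.14, adjusted p = 0.00628), though the nearest tumors of the 2 groups almost met.

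Aldoa (aldolase A) was at 7.63, 8.28 and 9.13 UMIs per 10000 against 8.59, 10.8 and 14.3, with 8 of 9 B20-4.1.1 tumors above the isotype range (0.51 ± 0.11, adjusted p = 0.00734). Its partner Aldoc, at 1.92 to 2.48 against 2.1 to 2.71, did not pass (0.16, adjusted p = 0.198). Eno1 was at 0.174, 0.21 and 0.242 against 0.226, 0.308 and 0.373 (0.59 ± 0.10, adjusted p = 0.00168). Pkm (pyruvate kinase) was at 3.49, 3.81 and 4.24 against 3.66, 5.18 and 6.32 (0.46 ± 0.14, adjusted p = 0.0377), and its pool means did not separate, since B20-4.1.1 pool 1 (3.82) lay below isotype pool 2 (4.16). Pgm2, a phosphoglucomutase that links glucose 6-phosphate to glycogen, was at 0.212 to 0.276 against 0.264 to 0.396 (0.44 ± 0.10, adjusted p = 0.0117). Pgm1 did not pass (0.12). In the files the symbols Pgm1 and Pgm2 stand for ENSMUSG00000029171 and ENSMUSG00000025791, which newer annotation names the other way round.

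**Figure D3:**
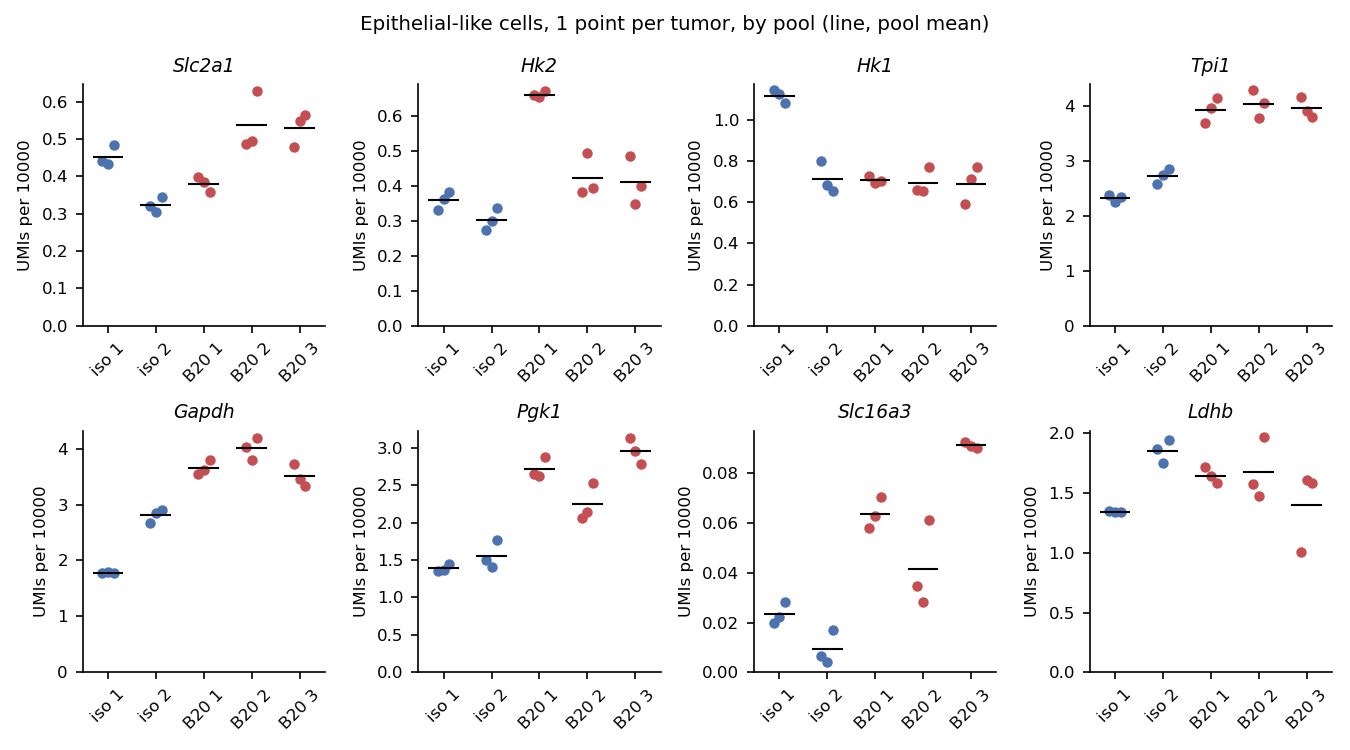
UMIs per 10000 of 8 members in epithelial-like cells, 1 point per tumor, grouped by pool with the pool mean as a line (blue, isotype IgG2a; red, B20-4.1.1). Tpi1, Gapdh, Pgk1 and Slc16a3 are higher in all 3 B20-4.1.1 pools than in either isotype pool, while Hk1 is high in isotype pool 1 alone and Ldhb overlaps.

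At the exit, Ldha was at 10, 10.9 and 12.3 UMIs per 10000 in isotype tumors and 11.4, 13.6 and 16.2 in B20-4.1.1 tumors (log2 difference 0.39 ± 0.10, adjusted p = 0.0166). Ldhb was at 1.34, 1.55 and 1.95 against 1.01, 1.58 and 1.97, and did not pass (0.03). Its share of the UMIs of Ldha and Ldhb together was lower in B20-4.1.1 tumors without overlap, at 8.12%, 10.5% and 11.2% against 11.3%, 12.3% and 14.8% in isotype tumors. Slc16a3 had the largest log2 difference of the members, 2.18 ± 0.33 (adjusted p = 0.000981), at 0.00406, 0.0184 and 0.0281 against 0.0284, 0.063 and 0.0926. These levels are low and the nearest tumors of the groups touched. Slc16a1, at 0.0495 to 0.0835 against 0.0557 to 0.0943, did not pass (0.24, adjusted p = 0.271).

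Of the mitochondrial entry, none of Pdk1 (0.26, adjusted p = 0.167), Pdk3 (0.18), Pdha1 (-0.11), Pdhb (-0.03), Mpc1 (0.28, adjusted p = 0.125) and Mpc2 (0.08) passed, with log2 differences in brackets. Pdha1 was at 1.2 to 1.34 UMIs per 10000 in isotype and 1 to 1.3 in B20-4.1.1 tumors, with 8 of 9 below the isotype range. Bpgm, which makes 2,3-bisphosphoglycerate, had a log2 difference of -0.23 (adjusted p = 0.208).

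Summed over the 33 members, epithelial-like cells held 45.1, 47.4 and 51.1 UMIs per 10000 in isotype tumors (mean 47.8 ± 2.77, SD, n = 6) and 57.4, 59.2 and 68 in B20-4.1.1 tumors (60.5 ± 3.48, SD, n = 9), without overlap. Much of this lay in 6 members taken out together: without Gapdh, Aldoa, Eno1, Ldha, Pkm and Tpi1 the sums were 18.7 to 20.5 and 20 to 24.1. Of these 6, Eno1 was not abundant, with a mean of 0.266 over the 15 tumors. In the same cells the 10 epithelial markers together were also higher without overlap, from 66.9 to 88.6 in isotype to 89.1 to 129 in B20-4.1.1 tumors. Summed T markers were at 0.0754 to 0.183 and 0.153 to 0.462, and macrophage markers at 1.57 to 2.58 and 1.07 to 2.44. Their part in the result was not tested.

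The pools set the limit on this comparison. Of the 30 members tested, 6 (Gpi1, Tpi1, Gapdh, Pgk1, Pgam1 and Slc16a3) had all B20-4.1.1 tumors above all isotype tumors, against 1.55% of all genes, and 13 had all 3 pool means above both isotype pool means, against 10.1% of all genes. Pool means of Hk1, Bpgm and Pdha1 lay below, against 13.5% of all genes. The 2 isotype pools also differed from each other: of the same 30 members 15 were higher and 3 lower in isotype pool 2 than in pool 1, against 29.3% and 26.9% of all genes. Gapdh (log2 difference 0.93), Pgam1 (0.60), Pkm (0.51), Tpi1 (0.50), Ldha (0.46), Pgk1 (0.43), Gpi1 (0.42) and Aldoa (0.29) were among those higher in isotype pool 2. For Slc16a3 (-0.94, adjusted p = 0.0799), Pfkfb3 (-0.25), Hk2 (0.03) and Eno1 (0.05) that difference did not pass. With the pool as a random block the log2 differences of the 3 members that passed were 0.93 (Pgk1, adjusted p = 0.0250), 0.74 (Tpi1, adjusted p = 0.0211) and 0.81 (Gapdh, adjusted p = 0.0493). Without isotype pool 1 the 6 that passed were Pfkfb3, Pgk1, Eno1, Tpi1, Gapdh and Slc16a3, against 3.25% of all genes. The log2 differences then were 0.37 for Gapdh, 0.51 for Tpi1, 0.74 for Pgk1, 0.59 for Eno1 and 0.91 for Pfkfb3. For Ldha and Gpi1, which no longer passed, they were 0.20 and 0.27. With counts summed per pool, 2 against 3, edgeR called 0 members and 0% of all genes, 9 members had an unadjusted p under 0.05 against 9.49% of all genes, and a permutation of 5 pools cannot go below 0.1.

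In macrophage-like cells, the same contrast used 14 tumors, since 1 B20-4.1.1 tumor had only 17 such cells. No member of 26 tested passed with edgeR, against 0.03% of 6670 genes higher and 0.015% lower, while 13 members had an unadjusted p under 0.05, against 10% of all genes, and DESeq2 called 1 member and 0.48% of all genes. Slc16a3 came nearest, at 0.389, 0.606 and 0.77 UMIs per 10000 in isotype tumors and 0.607, 0.915 and 1.13 in B20-4.1.1 tumors, with 7 of 8 above the isotype range (log2 difference 0.76 ± 0.16, adjusted p = 0.0934 with edgeR, called by DESeq2). Pgm1 was at 0.14, 0.148 and 0.18 against 0.196, 0.267 and 0.373, without overlap (0.82 ± 0.19, adjusted p = 0.114). It was the only tested member with no overlap, a pattern found in 0.165% of genes in these cells. All 3 pool means lay above both isotype pool means for 12 tested members, against 6% of all genes. The summed level was 35.3, 39.2 and 47.8 against 35.7, 53.2 and 67.5, and the median log2 difference of tested members was 0.39, with 0.01 over all genes. Without isotype pool 2, 5 members passed, and so did 5.91% of all genes in that fit.

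T-like cells had fewer usable members. The T-like cells of the 2 groups also lay largely in different clusters, with 81 isotype and 1571 B20-4.1.1 cells in cluster 5 and 662 and 628 in cluster 7, which the sums do not separate. Of 18 tested, edgeR called 0, against 0% of 5692 genes in either direction. An unadjusted p under 0.05 was found for 3 of the 18, against 17.2% of all genes, so this count does not set the members apart. Aldoa was at 2.03, 2.46 and 2.63 UMIs per 10000 in isotype tumors and 2.7, 3.07 and 4.52 in B20-4.1.1 tumors, without overlap, as in 0.123% of genes (log2 difference 0.58 ± 0.11, adjusted p = 0.118 with edgeR). DESeq2 called Aldoa, beside 1.25% of all genes, and so did edgeR without B20-4.1.1 pool 3, beside 6.83% of all genes. Gapdh (0.39, adjusted p = 0.198) and Pdk3 (-0.65, adjusted p = 0.261) were the others with a low unadjusted p. The summed level was 21.7 to 24.5 against 19.5 to 34.5.

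Whether the treatment difference itself differed between epithelial-like and macrophage-like cells was tested for 32 members and none passed with edgeR, against 0.00885% of 11294 genes higher and 0.0531% lower, while 5 had an unadjusted p under 0.05, against 8.65% of all genes. On simulated data without pool differences this test recovered 33.3% of 2-fold and 1.52% of 1.5-fold changes, so differences of this size could be missed here. Hk1 came nearest, with a difference of log2 differences of 1.12 ± 0.23 (macrophage-like minus epithelial-like, adjusted p = 0.0942). In macrophage-like cells Hk1 had been at 0.132 to 0.267 UMIs per 10000 in isotype and 0.197 to 0.467 in B20-4.1.1 tumors, the opposite order from epithelial-like cells. The value for Slc16a3 was -1.34 ± 0.35 (adjusted p = 0.207). Hk1 passed without isotype pool 2, beside 0.385% of all genes, and Slc16a3 without isotype pool 1, beside 0.0302%.

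The third comparison set cells of the same tumor against each other, so that treatment, pool and mouse were shared. Each epithelial-like cell was thinned to 2500 UMIs and called marked if it held at least 2 UMIs over 8 hypoxia-response genes that are not members (Car9, Vegfa, Ankrd37, Adm, Egln3, Bnip3, Ndrg1, Hilpda), and was compared with cells that held 0. Marked cells were 10.7%, 11.3% and 12.2% of epithelial-like cells in isotype tumors and 13.4%, 17.8% and 25.6% in B20-4.1.1 tumors. In 14 tumors, 1936 marked and 8034 other cells were compared, and 1 tumor with 14 marked cells was left out.

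Of 25 members tested, 17 were higher and 1, Ldhb, was lower in marked cells, against 4.98% of 7928 genes higher and 3.22% lower. With cells marked by Car9 alone, which left 9 tumors, 2 members passed, Pgk1 and Aldoa, against 1.05% of all genes. Summed over all members, marked cells held 45.3, 67.5 and 81.2 UMIs per 10000 and other cells 42.6, 50.6 and 61.1, higher in marked cells in 14 of 14 tumors. The epithelial markers were also higher in marked cells in 13 of 14 tumors (72.2 to 137 against 66.6 to 116). The T markers were at 0.151 to 0.786 and 0.0666 to 0.551, and the part of either in the result was not tested.

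Pgk1 separated the cells most clearly: 1.62, 3.76 and 6.36 UMIs per 10000 in marked cells and 1.1, 1.51 and 2.16 in other cells, higher in 14 of 14 tumors (log2 difference 1.21 ± 0.07, adjusted p = 6.12e-17). Pgam1 and Tpi1 were higher in 14 of 14 as well, with log2 differences of 0.82 and 0.68. Slc16a3 had the largest log2 difference, 3.04 ± 0.36 (adjusted p = 2.85e-08), from 80 UMIs in marked and 30 in other cells, and was at 0 in the marked cells of 2 tumors. The entry genes Hk2 (1.13) and Slc2a1 (0.94) and the regulator Pfkfb3 (1.46) followed. Pdk1, the kinase that shuts pyruvate dehydrogenase, was at 0.176 to 0.5 in marked and 0.105 to 0.248 in other cells, higher in 14 of 14 tumors (0.74, adjusted p = 0.000251), though it had not passed between treatments.

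**Figure D4:**
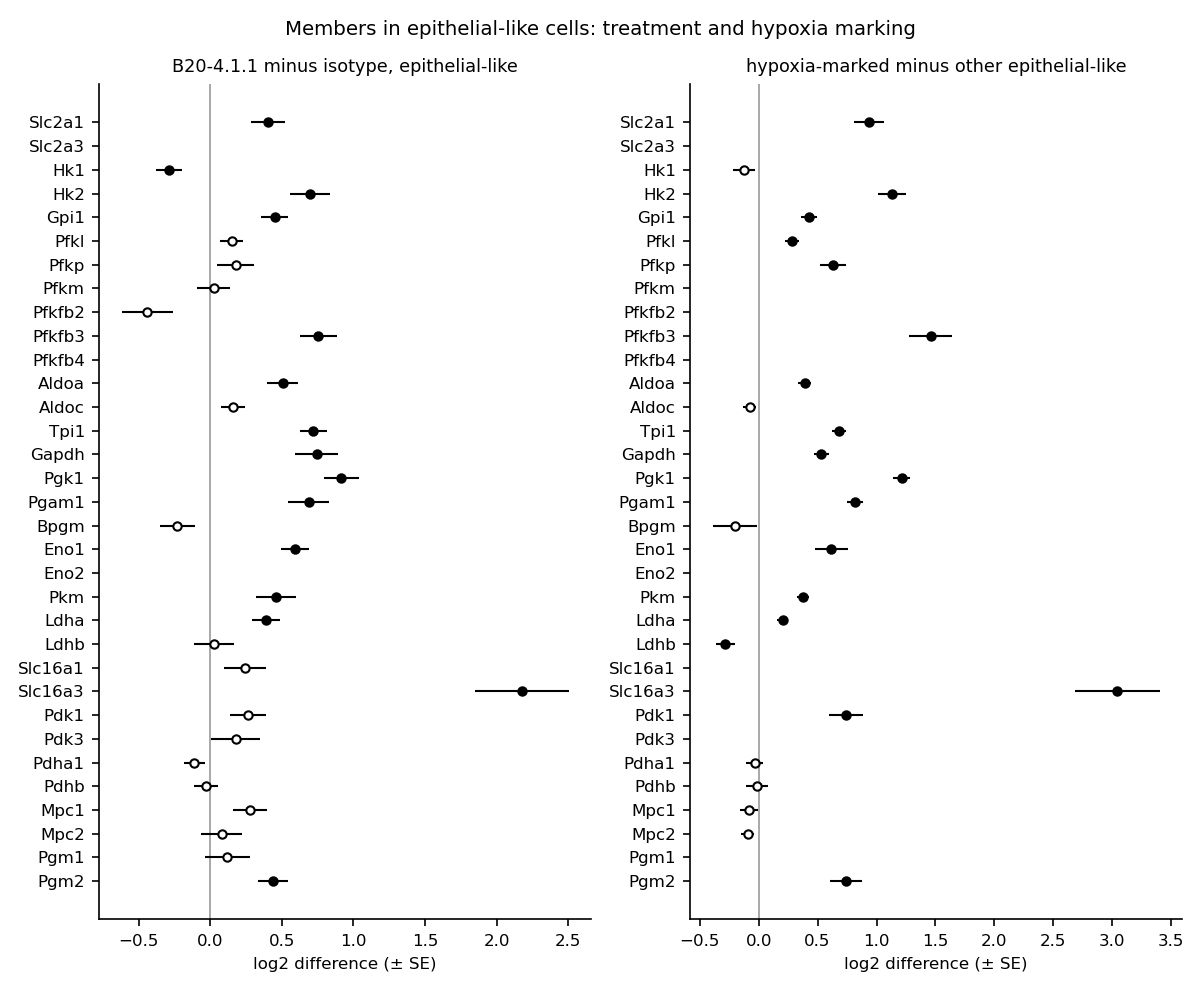
Log2 differences with standard errors of each member in epithelial-like cells, between treatments (left, 15 tumors) and between hypoxia-marked and other cells of the same tumor (right, 14 tumors); filled points passed the adjusted threshold of 0.05, and a member with no point was not tested. Slc16a3 lies farthest right in both panels, Pdk1 and Pfkp are filled on the right and open on the left, Hk1 is left of 0 in both panels and filled on the left, and Ldhb is filled and lower on the right.

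The remaining members that were higher in marked cells had smaller log2 differences: Pgm2 0.74, Pfkp 0.63, Eno1 0.61, Gapdh 0.53, Gpi1 0.43, Aldoa 0.39, Pkm 0.38, Pfkl 0.28 and Ldha 0.21. Ldha, whose promoter window held the most matches of the 4 shown, was at 9.22, 13.9 and 20.3 UMIs per 10000 in marked and 9.74, 12.3 and 15.7 in other cells. Ldhb was at 0.571, 1.51 and 1.92 against 1.08, 1.6 and 1.94, lower in 11 of 14 tumors (log2 difference -0.28 ± 0.08, adjusted p = 0.0178). The mitochondrial entry did not pass, with Pdha1, Pdhb, Mpc1 and Mpc2 within 0.20 of 0, and neither did Hk1, Aldoc or Bpgm. Among promoters, 13 of the 17 members higher in marked cells (76.5%) and 6 of the 8 tested members that were not (75%) held a match. At least 2 matches, which a single CACGTG also gives, were held by 11 of the 17 (64.7%), 3 of the 8 (37.5%) and 20.8% of all promoters. The windows of the 17 had a median of 65% G and C, those of the 8 59.2% and all promoters 52.7%. These shares are given without a test.

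**Figure D5:**
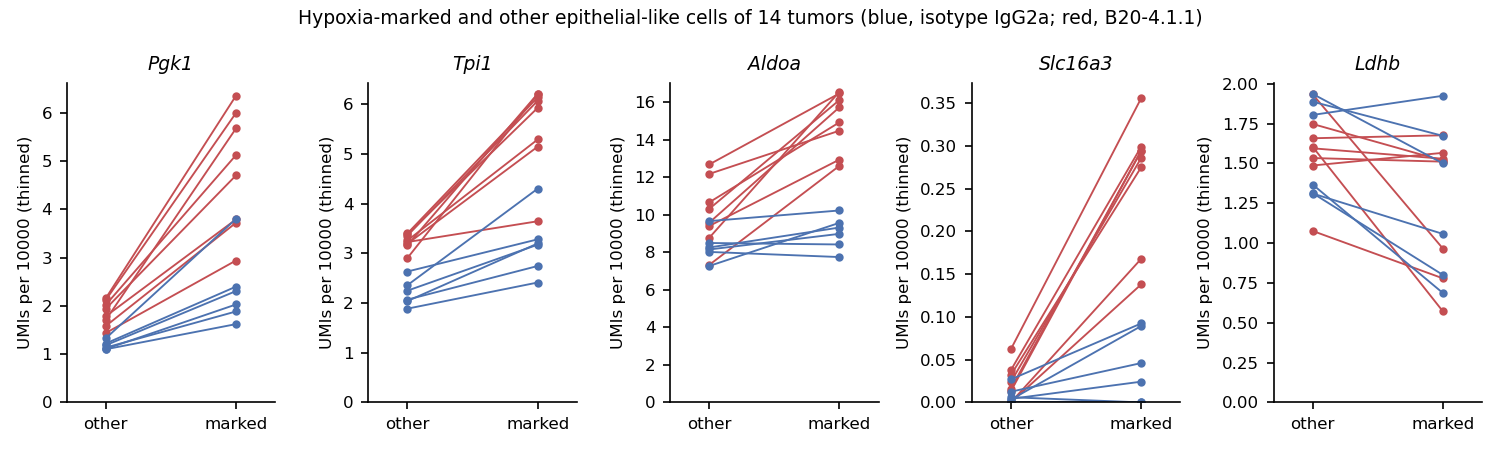
UMIs per 10000 of 5 members, after thinning every cell to 2500 UMIs, in other and hypoxia-marked epithelial-like cells of the same tumor; each line is 1 of 14 tumors (blue, isotype IgG2a; red, B20-4.1.1). Pgk1 and Tpi1 rise in every tumor, Aldoa rises in all 8 B20-4.1.1 tumors and in 4 of 6 isotype tumors, and Ldhb falls in 11 of 14.

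Treatments were also compared within marked cells and within cells that were not marked, a comparison added after the data had been seen. The degree of marking was not matched between the groups. Of 27 hypoxia targets outside glycolysis, which include the 8 marking genes, 23 were tested in marked cells. There 6 were higher in B20-4.1.1 tumors and 0 lower, against 2.78% of genes higher. Within marked cells, 10 of 23 tested members were higher in B20-4.1.1 tumors, against 2.78% of genes: Pgk1 (log2 difference 1.05), Pgm2 (0.93), Pgam1 (0.85), Tpi1 (0.83), Gapdh (0.79), Aldoa (0.75), Hk2 (0.69), Gpi1 (0.56), Pkm (0.54) and Ldha (0.52). Within cells that were not marked, 5 of 28 were higher, against 3.27% of genes: Gapdh (0.73), Pgk1 (0.71), Eno1 (0.67), Tpi1 (0.59) and Pgam1 (0.56). The higher levels of Pgk1, Tpi1, Gapdh and Pgam1 were thus seen on both sides of the marking. The test of the difference between the 2 sides called 1 of 25 members, Aldoa, against 0.0505% of genes. Its log2 difference of marked over other cells was -0.05, 0.11 and 0.40 in isotype tumors and 0.25, 0.57 and 0.92 in B20-4.1.1 tumors (difference 0.47 ± 0.09, adjusted p = 0.00375 with edgeR). Pool and treatment cannot be told apart in these comparisons either.

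Neighboring pathways were read from a list of 56 further genes of sugar transport, gluconeogenesis, glycogen and the pentose phosphate pathway. Between treatments in epithelial-like cells 5 of 38 tested (13.2%) were higher, beside 7.46% of all genes and 46.7% of the tested members: Bsg, the chaperone that brings MCT1 and MCT4 to the membrane (log2 difference 0.65), Ugp2 (0.62), which makes UDP-glucose, Stbd1 (0.57), which binds glycogen, G6pc3 (0.50) and Slc2a8 (0.49). The lactate and pyruvate carrier Slc16a7 (-0.71) and pyruvate carboxylase Pcx (-0.49) were lower, 2 of 38 tested, beside 6.95% of all genes. In marked cells Bsg (0.43), Ugp2 (0.42) and Me1 (0.32) were higher and Taldo1 (-0.17) was lower, of 22 tested. Over all genes 4.98% were higher there and 3.22% lower. Of 27 hypoxia targets outside glycolysis, 11 of 25 tested were higher and 1 lower between treatments, against 7.46% and 6.95% of all genes. The 8 marking genes were among the 27 and were left out of the marked comparison. There 15 of 17 tested were higher in marked cells, against 4.98% of all genes. Marked cells were chosen by targets of the same list, so that count is no independent test of the marking.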

How the data were processed

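Single cells of 15 tumors were profiled with 10x Genomics 3′ chemistry and CellPlex tags, and the authors deposited 1 matrix of UMI counts per tumor, made with Cell Ranger 6.1.2 per the file headers. The submitters' processing notes also list mm10, Seurat 4.3.0 and bcl2fastq. These counts were used as deposited and the tag rows were left out. The high- and low-hypoxia classes of the study are not in the labels and were not used. The Aldoa symbol has a second row with 11 UMIs in epithelial-like cells, which was left out.

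Cells with 2500 to 27500 UMIs and at most 20% mitochondrial UMIs were kept (10107 had fewer UMIs, 375 more, and 325 a higher mitochondrial share). This upper limit was the only treatment of doublets besides the removal of 879 cells with markers of more than 1 class. A cell was placed in a class when at least 40% of the marker genes of that class had a UMI in it. The next class could reach at most 50% of that share. Leiden clusters (scanpy 1.11.5, leidenalg 0.10.2, clustered without the members) gave the same class as this gate for 98.7% to 99.7% of cells. Counts were summed per tumor and class (at least 20 cells), filtered with filterByExpr, and tested with edgeR 4.0.16 (TMM, quasi-likelihood F test, Benjamini-Hochberg adjustment over all genes, threshold 0.05) in R 4.3.3. Contrasts within tumors had the tumor as block. The tests of treatment, class, marking and the interaction of class and treatment were first tested on simulated data. The interaction of marking and treatment and the fits within marked or unmarked cells, over sums per pool and between isotype pools were not. Of genes changed 2-fold, 95.5% were recovered between treatments in epithelial-like, 91.9% in macrophage-like cells and 87.5% for the T-like class, and of those changed 1.5-fold 35.4%, 24.2% and 20.6%. Of the genes called there in epithelial-like cells, 5.59% with edgeR and 9.94% with DESeq2 had not been changed. The simulated counts had 1 dispersion for all genes and no differences between pools. These shares therefore need not hold where pools differ, as they did here. Levels are UMIs per 10000 UMIs of the class and tumor, and cover counting error and spread between tumors only. Free RNA and reads shared with copies were not corrected.

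Alternatives were DESeq2 1.42.0, no TMM factors, upper-quartile factors, no filter, pool as random block (limma 3.58.1), sums per pool, leaving out each pool, thinning, a 10% mitochondrial limit, clusters, and leaving out the 3 tumors with the highest T-like shares. The members and lists were chosen with earlier results of these data known. All members are accounted for. Values per group are given for each member that passed in a class and for partners of its isozyme or transporter pair, with exceptions. The exceptions are the partners Slc2a3, Pfkfb2, Pfkfb4 and Eno2, and Pgm1 in epithelial-like cells. Neighboring pathway genes are named where they passed, at most 5 per direction. Promoters came from RefSeq (GRCm38.p6). Slc2a3 was not in that table. The range over single macrophage markers in epithelial-like cells is not reported here.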

Additional observations from a re-analysis of the deposited data

Results flagged for a closer look

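In isotype epithelial-like cells, Pgk1 in the third tumor of isotype pool 2 was at 1.76 UMIs per 10000, apart from the next tumor at 1.5, with the lowest at 1.36, and the gap was 0.642 of the range of the 6 tumors. Over the 52 groups looked at in this way, about 1 in 20 would stand apart by chance. Pgk1 stayed below every B20-4.1.1 tumor (2.06 to 3.13) with this tumor included.

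The difference of Aldoa between hypoxia-marked and other epithelial-like cells was larger in B20-4.1.1 than in isotype tumors by 0.468 on the log2 scale (edgeR, adjusted p = 0.00375). It was positive in 8 of 8 B20-4.1.1 tumors (mean 0.58 ± 0.22, SD) and in 4 of 6 isotype tumors (mean 0.12 ± 0.16, SD), and the ranges of the groups overlapped.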

How the results depend on the processing

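In epithelial-like cells the number of members called was 15 as reported, 3 with the pool as a random block, 0 with sums per pool, and 6 to 19 when 1 pool was left out, where 3.25% and 43.2% of all genes were called at the ends of that range, without isotype pool 1 and 2. Under the other alternatives it was 13 to 15, and Hk1 passed in 5 of 15 alternatives. In macrophage-like cells it went from 0 to 1 with DESeq2 and was 0 to 5 without 1 pool. In T-like cells it was 1 with DESeq2 (1.25% of all genes), the random block (1.41%) or clusters (0.0585%), and 0 to 1 without 1 pool. The 1 without B20-4.1.1 pool 3 stood beside 6.83% of all genes. For the difference between epithelial-like and macrophage-like effects it was 2 with no filter (Hk1 and Slc16a3), beside 0.225% of all genes, and 0 to 1 without 1 pool. The 1 without isotype pool 1 stood beside 0.0302% of all genes, and the 1 without isotype pool 2 beside 0.385%. The marked-cell count of 18 became 2 (Pgk1 and Aldoa) with cells marked by Car9 alone, where only 9 tumors had enough cells, and Pfkl reversed to -0.052. The summed level was 12.7, 13.1 and 2.10 UMIs per 10000 higher in B20-4.1.1 tumors in epithelial-like, macrophage-like and T-like cells. Without Gapdh, Aldoa, Eno1, Ldha, Pkm and Tpi1 it was 2.78, 5.18 and 0.168 higher. Leaving out 1 pool gave 10.2 to 15.2, 7.07 to 16.5 and 0.0814 to 3.38. In T-like cells it was 5.16 without mitochondrial and ribosomal protein genes in the total, and 4.10 without the 3 tumors rich in T-like cells. Without TMM factors the median of all genes in T-like cells moved from 0.01 to -0.15 on the log2 scale. The cause of these changes was not tested. Depth limits Slc16a3, Slc16a1, Pfkfb2, Pfkfb4, Eno2 and Slc2a3 most, each below 0.1 UMIs per 10000 in epithelial-like cells. No paired analysis was possible because pool numbers only name the pools and no tumor of 1 treatment shares a mouse, litter or day label with a tumor of the other.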

Other observations

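Only 98 cells were neutrophil-like by their markers, too few for a comparison between treatments. Summed over these cells, Slc16a3 was at 2.74 (101 UMIs), Slc2a3 at 1.95 (72 UMIs), Pfkfb4 at 1.03 (38 UMIs), Hk2 at 1.71, Pfkfb3 at 1.00 and Pgk1 at 2.87 UMIs per 10000. Slc16a3, Slc2a3 and Pfkfb4 were thus above every value seen in macrophage-like, epithelial-like or T-like cells of any tumor. This was not tested, since most tumors gave under 20 such cells. Of the 98 cells, 17, 25 and 21 came from the tumors of isotype pool 1, so the sums rest largely on that pool.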
